A study of Mus musculus with 18 samples.

Results

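Glycolysis and hypoxia-responsive genes were followed as a group of 10 of the 18659 genes in the deposited table of serum-grown mouse embryonic stem cells (mESCs). The members were listed by name and all 10 were found: the glucose transporters *Slc2a1* and *Slc2a3*, the glycolytic enzymes *Hk2*, *Pfkl*, *Pfkp*, *Aldoa* and *Ldha*, the kinase *Pdk1*, the mitophagy receptor *Bnip3* and the secreted growth factor *Vegfa*. The study reduced *Stag1*, a subunit of the cohesin complex, by small interfering RNA (siRNA) in male E14 mESCs and profiled rRNA-depleted RNA after 24 h. All groups used here were grown in serum, and 16 of the 18 samples were analysed. Set 1 held 1 library of scrambled siRNA (scr) and 3 libraries of the SmartPool against *Stag1* (SP, numbered 1a, 1b and 1c). Sets 2 and 3 each held 1 library of scr, of SP, of siRNAs to the 3′ end of the transcript (3p), of siRNA to its 5′ end (5p), and of enzymatically prepared siRNA to transcripts from the upstream SATS start site (SATS). The methods give 5p as 1 custom duplex. For SP they list catalogue numbers whose endings include all those of 3p. Set 2 also held 1 library of untreated cells and set 3 held 1 library of luciferase siRNA (Luc). The labels do not say whether 1a, 1b and 1c came from separate cultures, so they were averaged to 1 sample in the fits. The p-values measure only the spread between the samples fitted. RNA was taken from whole cultures, where fewer cells of a type and less RNA per cell cannot be told apart.

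Glycolysis turns glucose into pyruvate in the cytosol, and lactate dehydrogenase then regenerates NAD+ by reducing pyruvate to lactate. When oxygen is low, hypoxia-inducible factors (HIFs) are no longer marked for destruction by prolyl hydroxylases and they switch on genes for glucose uptake, glycolysis, mitochondrial restraint and blood vessel growth. mESCs combine glycolysis with oxidative metabolism, and the balance between them shifts as the cells leave the naive state. HIFs bind DNA at a short core written ACGTG or GCGTG.

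The sequence before the start of a gene is where that core could be read, so the 250 bases upstream of the RefSeq start nearest to the GENCODE start were searched in 9 members (table build GRCm38.p6). They are shown for *Bnip3* and *Pdk1*, which were higher in set 3 than in set 2, and for *Slc2a1* and *Vegfa*, which were lower. These genes lie on chromosomes 7, 2, 4 and 17 in that order, which the labels below write as decimals. *Slc2a3* has no entry. Capitals mark ACGTG or GCGTG on either strand, so CACGT and CACGC are the same cores read on the other strand, and CACGTG holds ACGTG on both strands.
Bnip3, chr7.0:138909507-138909756, minus strand: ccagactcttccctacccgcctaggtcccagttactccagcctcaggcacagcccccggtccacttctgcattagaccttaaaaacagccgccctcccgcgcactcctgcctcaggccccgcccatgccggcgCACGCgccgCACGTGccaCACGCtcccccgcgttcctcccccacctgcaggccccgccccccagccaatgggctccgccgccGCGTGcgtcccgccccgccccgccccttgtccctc
Pdk1, chr2.0:71872974-71873223, plus strand: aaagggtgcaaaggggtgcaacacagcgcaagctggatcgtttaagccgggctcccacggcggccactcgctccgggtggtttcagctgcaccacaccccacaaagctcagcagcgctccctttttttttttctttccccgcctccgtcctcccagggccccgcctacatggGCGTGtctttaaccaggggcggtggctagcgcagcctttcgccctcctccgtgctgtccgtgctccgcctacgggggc
Slc2a1, chr4.0:119108495-119108744, plus strand: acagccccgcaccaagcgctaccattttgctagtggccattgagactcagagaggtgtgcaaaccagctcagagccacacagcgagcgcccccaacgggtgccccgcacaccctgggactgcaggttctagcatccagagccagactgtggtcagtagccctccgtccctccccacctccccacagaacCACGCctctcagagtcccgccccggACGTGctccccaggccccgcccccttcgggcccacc
Vegfa, chr17.0:46032378-46032627, minus strand: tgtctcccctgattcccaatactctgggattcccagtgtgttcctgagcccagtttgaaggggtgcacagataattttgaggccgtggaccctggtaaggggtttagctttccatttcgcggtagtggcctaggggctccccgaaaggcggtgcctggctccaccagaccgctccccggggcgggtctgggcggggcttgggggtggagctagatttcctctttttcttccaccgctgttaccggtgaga

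The *Bnip3* stretch held 2 matches to ACGTG, which overlap in 1 CACGTG, and 3 to GCGTG. *Slc2a1* held 1 of each, *Pdk1* held 1 GCGTG, beginning 78 bases before the start, and *Vegfa* held neither. Of the other members, *Ldha* held 5 matches to ACGTG, counted before a RefSeq start that lies 4329 bases from the GENCODE gene start and whose following bases were not found in a GENCODE transcript of the gene. *Hk2* held 2, *Pfkp* held 3 to GCGTG, *Pfkl* held 1 and *Aldoa* held 0. The *Aldoa* start searched was 1 of 3 in RefSeq and lay 304 bases from the start of the downstream of its 2 GENCODE entries. The other starts of *Aldoa* were not searched. Over 32851 promoters of the same length, 16.6% held ACGTG, 28.2% held GCGTG and 38.6% held at least 1 of them. These are letters in a window and not measured binding.

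Depth differed between the sets. Reads on genes numbered 9023224 to 14040830 in the 4 libraries of set 1, of which the ribosomal precursor *Rn45s* took 69.2% to 79.1%, and 32137666 to 45660840 in those of sets 2 and 3, of which it took 14.7% to 23.9%. A total of 9 of the 10 members had at least 100 reads in every library, the exception being *Vegfa*, with 20 to 83 reads in set 1. *Stag1* itself was at 17.3% to 23.5% of the scr library of its set in the SP, 3p and 5p libraries of sets 2 and 3, at 25.4% to 32.8% in set 1 and at 49.7% and 50.5% with SATS. Each of the 8 stem cell markers was read in every set, with a summed normalised read count of 24649 to 57658 per library, and none of them was at 0. The markers of fibroblasts summed to 2546 to 5642 in set 2, to 288 to 499 in set 3 and to 25.7 to 435 in set 1, and trophectoderm markers to 648 to 869, 202 to 278 and 41.8 to 96.6. The fibroblast sum of 5642 was that of the untreated control of set 2, beside 2804 with scr of that set. Primitive endoderm markers summed to 276 to 351 in set 2, 193 to 253 in set 3 and 161 to 563 in set 1. *Lum*, a fibroblast marker, was at 0 in all 4 libraries of set 1.

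Per kb of merged annotated exon, the members spanned from *Aldoa*, an enzyme that splits a 6-carbon sugar, to *Vegfa*. The level is the normalised read count, which is reads divided by a size factor of the library, per kb. *Aldoa* stood at 4759 ± 317 (SD, n = 16), *Ldha*, which makes lactate, at 3874 ± 446, *Slc2a1* at 2874 ± 834 and *Slc2a3* at 2225 ± 683. *Hk2*, which traps glucose in the cell, followed at 938 ± 145, the phosphofructokinase subunit *Pfkl* at 651 ± 60.3, *Bnip3* at 391 ± 133 and *Pdk1* at 351 ± 93.6. The other phosphofructokinase, *Pfkp*, stood at 114 ± 79.8 and *Vegfa* at 49.1 ± 27.8. The order between neighbours held in all 16 libraries for 5 of the 9 neighbouring pairs. It held in 15 libraries for *Aldoa* over *Ldha* and for *Slc2a1* over *Slc2a3*, in 12 for *Ldha* over *Slc2a1* and in 11 for *Bnip3* over *Pdk1*. The order of the last pair went with the set. *Bnip3* was above *Pdk1* in every library of sets 1 and 2, and in set 3 only with SATS. Medians per kb were 589 and 447 in set 1, 276 and 248 in set 2 and 396 and 398 in set 3. Levels per kb understate genes with many alternative exons, such as *Pfkp*, for which 13401 bases of exon are annotated.

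**Figure D1:**
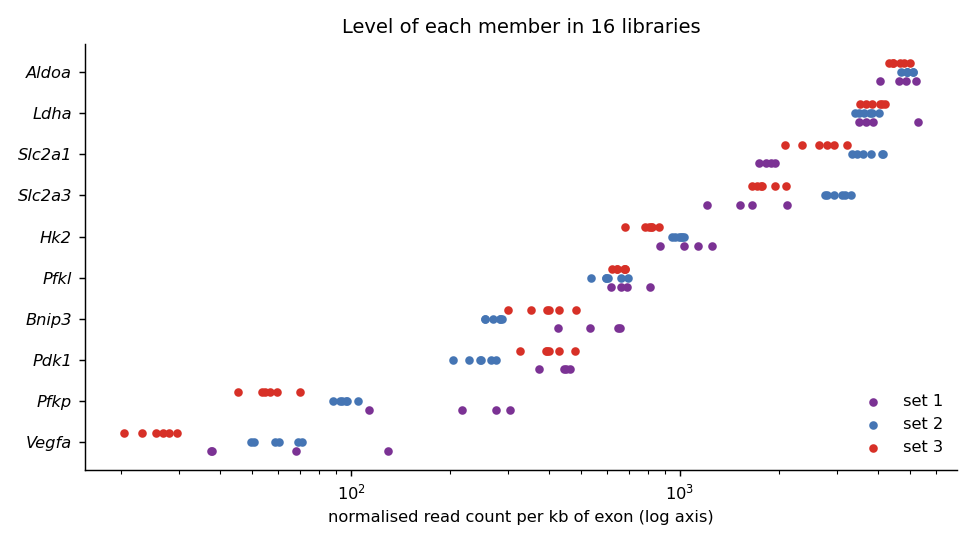
Normalised read count per kb of exon (x axis, log scale) of each of the 10 members (y axis) in 16 libraries, each point 1 library coloured by set. *Aldoa* and *Ldha* lie at the top of the range and *Vegfa* at the bottom, and *Vegfa* and *Pfkp* are the most spread between sets.

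The first question was whether *Stag1* knockdown changed these genes. SP was compared with scr over 3 sets, with 1a, 1b and 1c averaged, and 3p, 5p and SATS over sets 2 and 3. With limma on log2(value + 1) and Benjamini-Hochberg adjustment over all genes, 0 of 10 members passed an adjusted p of 0.05 in any of these comparisons, and 0 had an unadjusted p under 0.05. All genes tested gave little more in these fits. With SP over 3 sets 0 of 15970 genes passed (0%). Of 16490 genes 1 (0.00606%) passed with SP in sets 2 and 3, 1 (0.00606%) with 3p, 2 (0.0121%) with 5p and 0 (0%) with SATS. edgeR and DESeq2 on the recovered reads, without the set as a term, also called 0 members in each.

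Libraries of the same set moved together, so the fit with the set as a replicate block is given beside it. There SP over 3 sets again called 0 of 10 members (0% of all genes), with 3 members at an unadjusted p under 0.05, and edgeR with the block called 0. SP in sets 2 and 3 called 0 members against 0.746% of all genes, and 3p 0 members against 0.285%, each with 3 members under 0.05 before adjustment. 5p called 1 member, *Vegfa*, against 2.37% of all genes, and SATS called 1, *Pdk1*, against 2.64%. With 10 members, 1 call is a share of 10% that rests on a single gene.

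**Figure D2:**
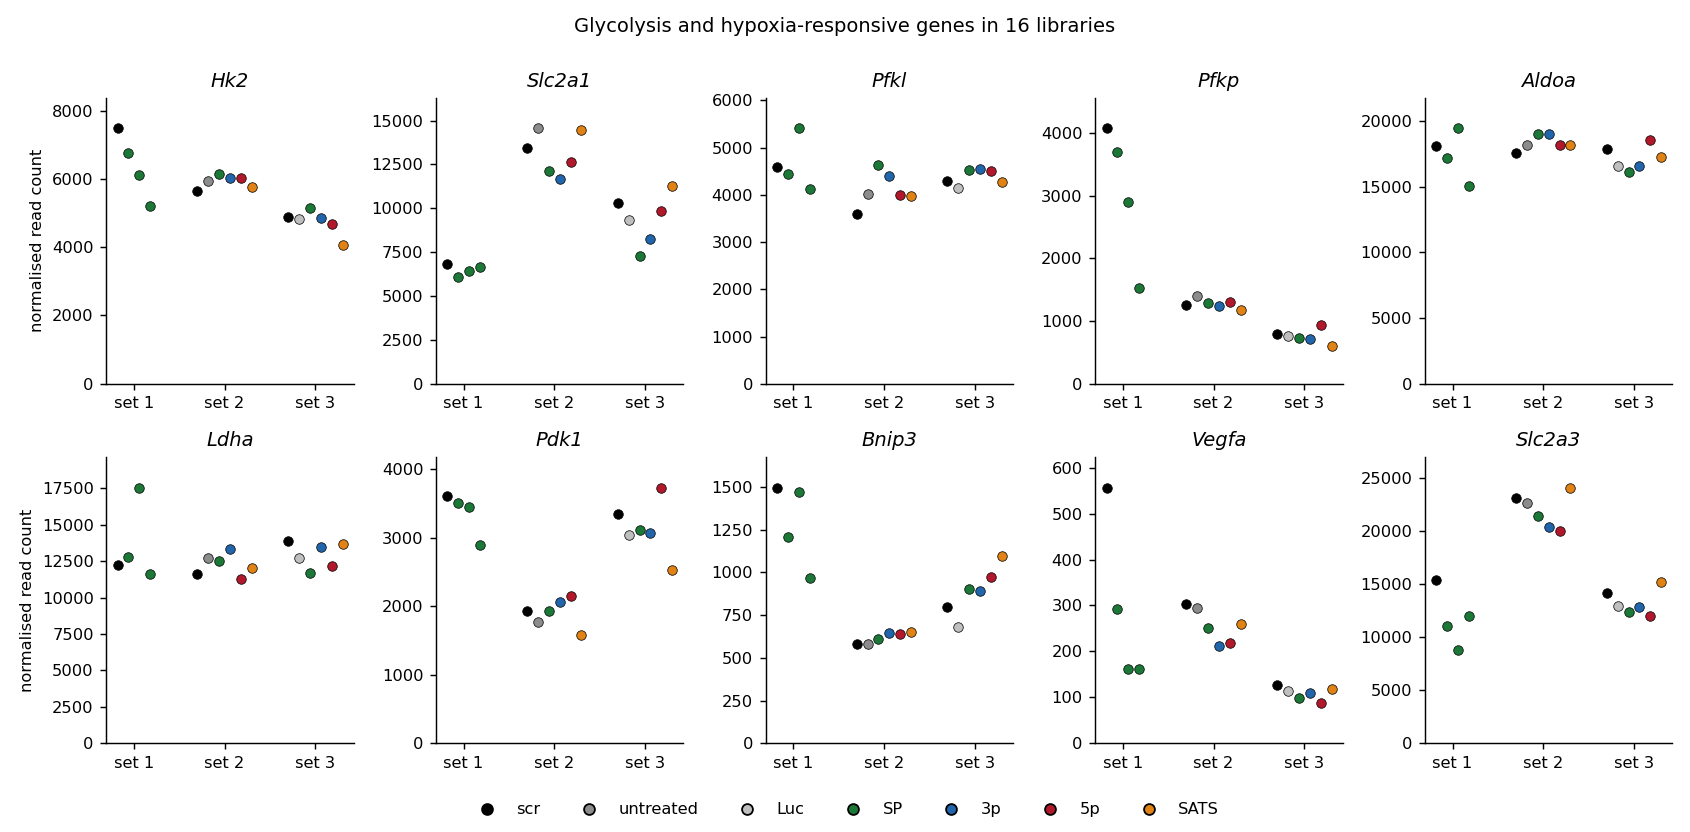
Normalised read count (y axis, from 0) of each member by set, each point 1 library, coloured by siRNA or control. The *Vegfa* scr library of set 1 stands at 556 above SP at 161 to 291, and *Pdk1* with SATS is the lowest library of sets 2 and 3.

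*Vegfa*, the growth factor that guides vessel growth and a textbook HIF target, was lower than scr of its own set in all 11 knockdown libraries. This held for 1.85% of 17156 genes in the lower direction and for 1.42% in the higher direction, where no member was found. Its normalised read count in set 1 was 556 with scr and 291, 161 and 161 with SP 1a, 1b and 1c, from 83, 62, 50 and 20 reads. In set 2 it was 304 with scr, 252 with SP, 212 with 3p, 218 with 5p and 259 with SATS, and in set 3 it was 126, 98.9, 109, 87.4 and 119 in that order. In sets 2 and 3 each library of SP, 3p and 5p was lower than both controls of its set. How many of all genes did the same was not counted. The untreated library of set 2 stood at 295 and the Luc library of set 3 at 115, so these controls also lay under scr, with log2 ratios of -0.04 and -0.14, and SATS in set 3 lay above Luc. With 5p the log2 fold change was -0.50 ± 0.12 (SE in the fit with the block, adjusted p = 0.0446), and without the block the adjusted p was 1.00. Leaving out 1 library in turn from the fit with the block, the adjusted p ranged from 0.0252 to 0.329 and the call was kept in 3 of 10 fits. It was lost without any 1 of the scr, SP or 5p libraries of either set or the SATS library of set 2. In the same fit 1 of 5 tested fibroblast markers passed with 5p, the collagen gene *Col1a1*, which was lower at -0.75 (adjusted p = 0.0255). It read 1849 and 155 with 5p against 2223 and 367 with scr. Of these 5 markers 3 had a log2 fold change above 0, and the median was 0.04. The summed fibroblast markers read 2609 and 288 with 5p and 2804 and 499 with scr, no marker of the list was at 0 in both libraries of either, and their part in the *Vegfa* difference was not tested. The log2 fold change was -0.36 with 3p, -0.31 with SP in sets 2 and 3 and -0.69 ± 0.24 (SE) with SP over 3 sets, which had adjusted p of 0.277, 0.296 and 0.759 in the same limma fit.

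*Slc2a1* and *Slc2a3*, the 2 glucose transporters, were lower than scr of their set in all 9 libraries of SP, 3p and 5p, as was *Vegfa*, and both were higher in both SATS libraries. That makes 3 of 10 members lower in all 9, beside 2.68% of all genes, and 0 members higher in all 9, beside 2.34%. The libraries of a set share 1 scr library, and SP and 3p may share siRNAs, so these directions are not independent. In set 3 the Luc control also lay under scr for all 10 members. Its log2 ratios ran from -0.24 to -0.02, with a median of -0.13 beside -0.01 over all genes. There *Slc2a3* stood at -0.13 with Luc, beside -0.19 with SP, -0.14 with 3p and -0.23 with 5p. *Slc2a1* stood at -0.15 with Luc, beside -0.50, -0.32 and -0.07 with the same siRNAs.

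*Slc2a3*, a transporter of high affinity for glucose, had a normalised read count of 15382 with scr in set 1 and 11023, 8754 and 11991 with SP 1a, 1b and 1c. In set 2 it was 23067 with scr, 21364 with SP, 20335 with 3p, 19993 with 5p, 24022 with SATS and 22559 in untreated cells. In set 3 it was 14109, 12394, 12810.1, 12013 and 15182 for the same siRNAs and 12898 with Luc. SATS gave the highest of the 6 libraries in both sets, and 5p the lowest. The log2 fold change with 5p was -0.22 ± 0.080 (SE, limma with the block, adjusted p = 0.189). *Slc2a3* lies on the minus strand of chr6:122727809-122801640 (GRCm38, GENCODE), 13175 bases from *Nanog*, a gene of the naive state. In the same fit of sets 2 and 3 the *Nanog* log2 fold changes were -0.34 with SP, -0.23 with 3p, -0.07 with 5p and -3.4e-04 with SATS (adjusted p 0.138, 0.417, 0.774 and 0.999). The last 2 average over opposite directions: the log2 ratios to scr in sets 2 and 3 were -0.26 and 0.12 with 5p and -0.20 and 0.20 with SATS. In set 1 *Nanog* stood at 55.1%, 42.6% and 44.0% of scr with SP 1a, 1b and 1c.

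*Slc2a1*, the transporter of basal glucose uptake, spans chr4:119108711-119137983 on the plus strand. It read 6844 with scr and 6111, 6419 and 6628 with SP in set 1. In set 2 it was 13411 with scr, 12150.3 with SP, 11692 with 3p, 12626 with 5p, 14437 with SATS and 14559 in untreated cells. In set 3 it was 10309 with scr, 7299.8 with SP, 8271 with 3p, 9837 with 5p, 11298 with SATS and 9321 with Luc. Both SP and 3p lay under both controls of their set, and the share of all genes that did so was not counted. The log2 fold change with SP in sets 2 and 3 was -0.32 ± 0.096 (SE, limma with the block, adjusted p = 0.165). With SP over 3 sets 0 members passed in the full fit. When the scr library or the SP libraries of set 1 were left out of the fit with the block, *Slc2a1* was the only member called, at adjusted p of 0.0208 and 0.0217. The block then absorbs what is left of set 1. Both fits therefore compare the same SP and scr libraries of sets 2 and 3 and are not separate results. The joint fit of those sets with the other siRNAs gave the 0.165 above. Those fits called 475 (3.03%) and 470 (3.00%) of all genes, against 0 in the full fit, and they were added after seeing the data. Without the block, leaving out the same libraries called 0 members.

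**Figure D3:**
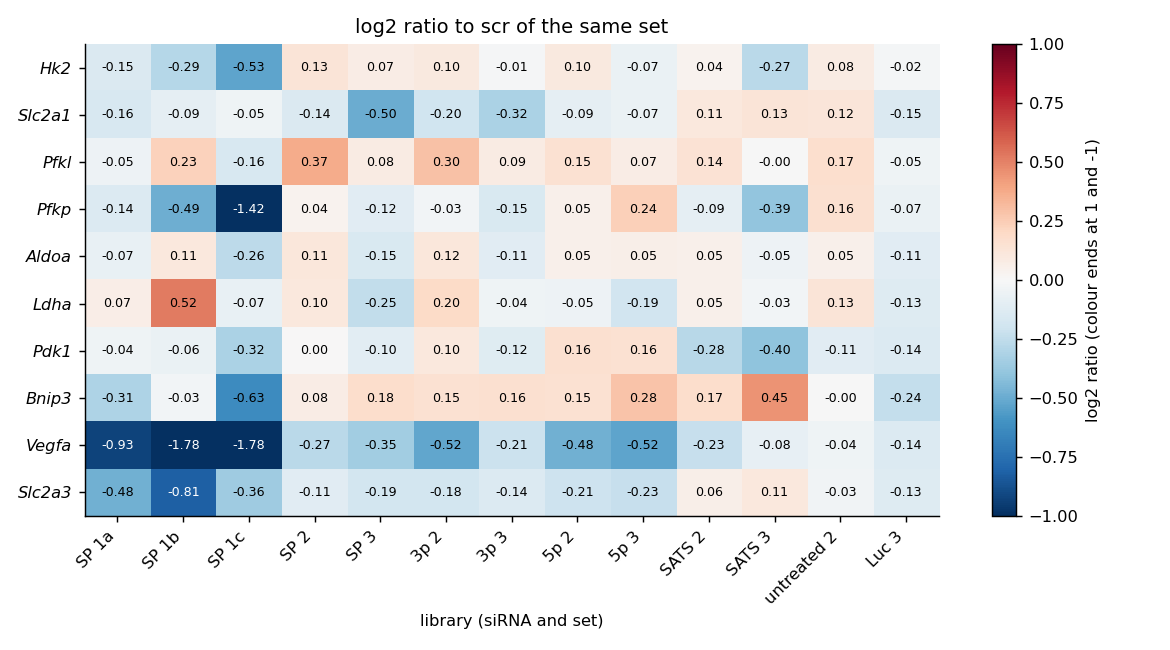
Log2 ratio of each member (rows) to scr of its set in 13 libraries (columns), printed in each cell, with blue for lower and red for higher values. The *Vegfa* row is negative in all 13 columns, and *Slc2a1* and *Slc2a3* turn positive in the SATS columns.

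With scr as the only control and no library left out, no glycolytic enzyme among the members passed in the limma fits with or without the block. Of the 32 fits of SATS against scr run in all, *Pfkp* passed in 1. *Aldoa* had log2 ratios to scr from -0.26 in SP 1c to 0.12 in 3p of set 2 over the 11 knockdown libraries. *Ldha* ranged from -0.25 in SP of set 3 to 0.52 in SP 1b, where its normalised read count of 17518 stood above the 11260 to 13895 of all other libraries. *Hk2* ran from -0.53 in SP 1c to 0.13 in SP of set 2, with a median over the 11 libraries of -0.01. *Pfkl*, the liver form of phosphofructokinase, was higher than scr in 8 of 11 libraries and also in untreated cells, which read 4027 against 3592 for scr. With SP in sets 2 and 3 its log2 fold change was 0.23 ± 0.080 (SE, limma with the block, adjusted p = 0.249).

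*Pfkp*, the platelet form, differed between the 3 SP libraries of set 1. It read 4078 with scr and 3704, 2907 and 1522 with SP 1a, 1b and 1c, with log2 ratios to scr of -0.14, -0.49 and -1.42. In set 2 the libraries of scr, SP, 3p, 5p and SATS read 1258, 1291, 1236, 1302 and 1180.3, and in set 3 they read 795, 733, 716, 936 and 604. SATS was the lowest of 6 libraries in both sets, and the 5p libraries were above scr in both. Its exons share 748 bases with *Pitrm1* on the other strand, and the methods state strand for paired-end reads only, so reads of the pair may not be fully told apart.

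*Pdk1*, a kinase that shuts off pyruvate dehydrogenase, was lowest with SATS. Its normalised read count with SATS was 1587 in set 2, against 1923 with scr, 1777 in untreated cells and 1929.5 to 2152 with SP, 3p and 5p. In set 3 it was 2531 with SATS, 3344 with scr, 3035 with Luc and 3075 to 3726 with the others. SATS was the lowest of 6 libraries in both sets and 5p was the highest. The log2 fold change of SATS against scr was -0.34 ± 0.077 (SE, limma with the block, adjusted p = 0.0356), and without the block the adjusted p was 1.00. Leaving out 1 library in turn kept the call in 5 of 10 fits with the block, with adjusted p from 0.0227 to 0.387. The call was lost without scr or SATS of either set or SP of set 3.

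*Bnip3*, which marks mitochondria for removal, was highest with SATS. It read 578 with scr, 610 with SP, 642 with 3p, 642 with 5p, 652 with SATS and 578 in untreated cells of set 2. In set 3 the same siRNAs read 799, 904, 891, 973 and 1093, and Luc read 678. All 8 knockdown libraries of these sets lay above both controls of their set, a pattern whose share over all genes was not counted. In set 1 scr read 1493 and SP read 1203, 1467 and 966, all under scr. The log2 fold change of SATS was 0.31 ± 0.086 (SE, limma with the block, adjusted p = 0.0688). It passed, at 0.0127, when the untreated and Luc libraries joined the controls in the fit with the block, an alternative chosen after seeing the data that called 1785 of 16684 genes (10.7%).

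A total of 2 members (*Pdk1* and *Pfkp*) were the lowest of 6 libraries with SATS in both sets, as were 8.94% of all genes, and 2 (*Bnip3* and *Slc2a3*) were the highest, as were 10.2%. These 4 of 10 members stand beside 19.1% of all genes at 1 end or the other. After the values were seen, SATS was also set against the mean of SP, 3p and 5p. Without the block 0 members and 0.00606% of all genes were called, with 0 members at an unadjusted p under 0.05, and edgeR and DESeq2 also called 0. With the block 3 members were called, beside 9.36% of all genes: *Pdk1* at -0.37 ± 0.063 (SE, limma adjusted p = 0.0042), *Slc2a1* at 0.34 ± 0.078 (0.0177) and *Slc2a3* at 0.26 ± 0.065 (0.0254). *Slc2a1* in set 2 read 14437 with SATS against 11692 to 12626 with the others, and in set 3 11298 against 7299.8 to 9837. Within each set the 1 SATS library lay outside the others, and the share of all genes like this was not counted. *Pdk1* and *Slc2a1* lost the call without the SATS library of set 3, at adjusted p of 0.163 and 0.373, and *Slc2a3* without either SATS library or SP of set 3, at up to 0.378. *Stag1* was left at 49.7% and 50.5% of scr with SATS and at 17.3% to 23.5% with the others, and the part of this difference in the members' values was not tested. The trophectoderm marker *Krt7* read 567 with SATS in set 2 and 145 in set 3, against 350 to 414 and 73.1 to 87 with SP, 3p and 5p, and *Col1a1* read 2907 and 364 with SATS against 1849 to 2044 and 155 to 274 with the others. In the fit with the block these were 1 of 4 tested trophectoderm markers (0.73, adjusted p = 0.0012) and 1 of 5 tested fibroblast markers (0.69, 0.0078) called higher. The summed trophectoderm markers read 869 and 278 with SATS against 648 to 735 and 202 to 225 with the others, and the fibroblast markers 3618 and 493 against 2546 to 2691 and 288 to 412. Against the mean of the others, 3 of the 4 trophectoderm markers had a log2 fold change above 0 (median 0.08). So did 3 of the 5 fibroblast markers (median 0.05) and 0 of 6 primitive endoderm markers (median -0.28). *Krt7* was also higher with SATS than with scr, at 0.64 (limma with the block, adjusted p = 0.0203). There it was the only 1 of the 4 tested trophectoderm markers above 0, and their median was -0.09. The part of these markers in the results was not tested.

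**Figure D4:**
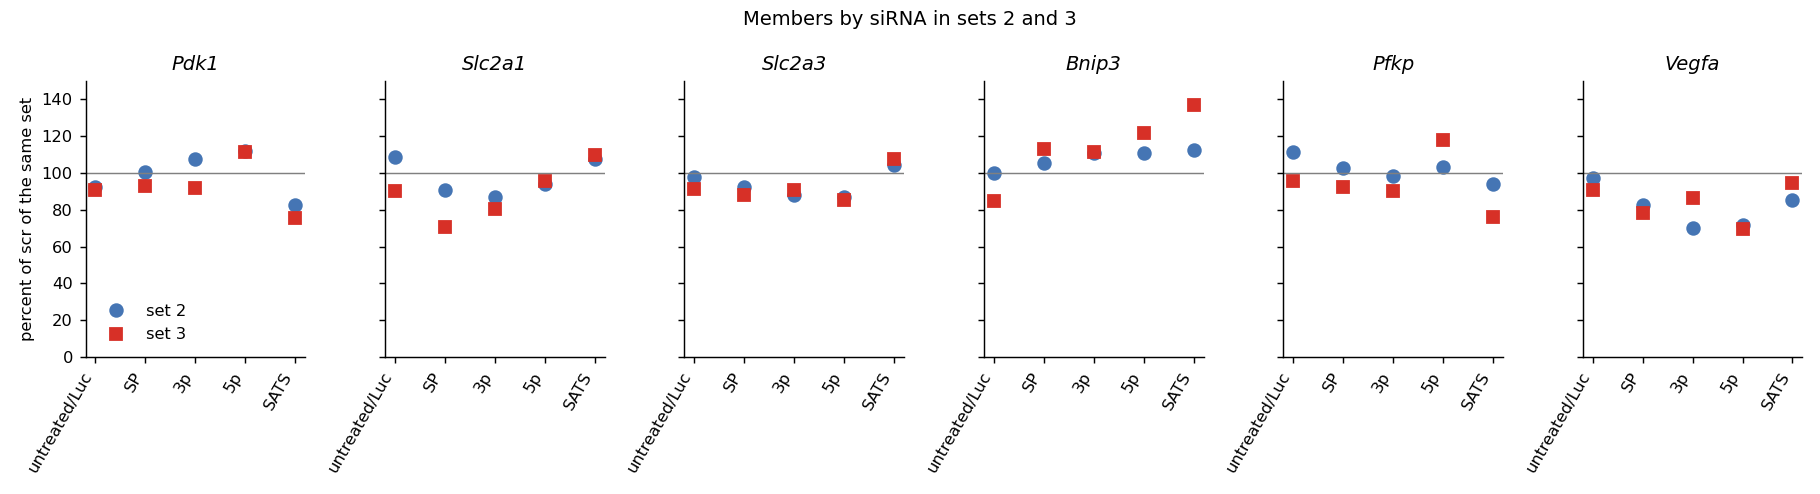
Level as a percentage of scr in the matching set (y axis, from 0) for 6 members by siRNA or control (x axis), with circles for set 2 and squares for set 3 and a line at scr. *Pdk1* lies below scr with SATS in both sets, and *Slc2a1* and *Slc2a3* lie above scr with SATS and below it with SP, 3p and 5p.

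The 5p and 3p siRNAs, which target opposite ends of the transcript, were compared with each other. The limma fit called 0 of 10 members (0% of all genes) without the block, and 0 members against 3.26% of all genes with it, and edgeR with the block and DESeq2 called 0. At an unadjusted p under 0.05, 0 members passed without the block and 3 with it. These were *Pfkp* at 0.23 ± 0.10 (SE, adjusted p = 0.277), *Pdk1* at 0.17 ± 0.077 (0.306) and *Ldha* at -0.20 ± 0.091 (0.315). *Pfkp* read 1302 and 936 with 5p and 1236 and 716 with 3p, and *Ldha* read 11260 and 12149 with 5p and 13324 and 13474 with 3p.

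Other genes of these pathways were counted from lists of enzymes, transporters, HIF factors, HIF targets, mitochondrial pyruvate use and the pentose phosphate pathway, members left out. Without the block, no list gene passed in any knockdown comparison by limma. With the block, of 31 HIF targets, SP in sets 2 and 3 had 1 higher and 1 lower, 3p had 0 and 0, 5p had 1 and 2, and SATS had 3 and 2. These are 6.45%, 0%, 9.68% and 16.1% of the list, beside 0.746%, 0.285%, 2.37% and 2.64% of all genes. The list's median log2 fold changes were 0.06, 0.03, 0.07 and 0.09, beside medians over all genes from -0.0041 to 0.012. *Ndrg1*, a stress-responsive gene, was lower with SP at -0.63 ± 0.11 (SE, limma with the block, adjusted p = 0.0168) and with SATS at -0.45 (0.0432). It read 285 with scr, 173 with SP and 211 with SATS in set 2, and 223, 153 and 161 in set 3. *Ddit4*, an inhibitor of mTORC1 signalling, was higher with SP at 0.47 (0.0192), *Higd1a*, a mitochondrial hypoxia gene, was higher with 5p at 0.47 (0.0473), and *Fam162a* and the transferrin receptor *Tfrc* were higher with SATS at 0.41 (0.0348) and 0.39 (0.0383). *Mxi1*, which opposes MYC, was lower with 5p, at -0.79 ± 0.11 (0.0016), reading 164 and 129 against 263 and 241 with scr, and it was also lower than with 3p, at -0.82 (9.3e-04).

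Of 19 tested glycolytic enzymes that are no members, SP in sets 2 and 3 had 1 higher, *Ldhb*, the heart form of lactate dehydrogenase, at 0.42 (limma with the block, adjusted p = 0.0288). 5p had 1 lower, *Pfkfb3*, which makes the activator of phosphofructokinase, at -0.41 (0.0292), and neither 3p nor SATS called any. *Pfkfb3* is also on the list of HIF targets and is counted there too. Of 30 genes of pyruvate use and the citric acid cycle, 5p had 1 lower, *Suclg1*, at -0.42 (0.0104), and SATS had 1 higher, *Dld*, a shared subunit of the pyruvate dehydrogenase complex, at 0.51 (0.0134). *Dld* read 1447 and 1726 with SATS against 1074 and 1141 with scr. Of 7 pentose phosphate genes, SP had 1 lower, *Rpe*, at -0.51 (0.0202). None of 9 transporters and none of 15 HIF factors and regulators passed against scr, and 5p against 3p called 1 of the latter, *Hif1an*, an asparagine hydroxylase that restrains HIFs, at -0.34 (0.0275), with *Suclg1* (-0.47, 0.0040) and *Rpia* (-0.57, 0.0364). SP over 3 sets called no list gene with the block. Beside these counts stand 0.746% of all genes with SP in sets 2 and 3, 2.37% with 5p, 2.64% with SATS and 3.26% for 5p against 3p. In SATS against the mean of the others, the limma fit with the block called 4 HIF targets higher and 2 lower, and 2 HIF factors higher and 3 lower. It also called 2 enzymes, 3 genes of pyruvate use and 1 pentose phosphate gene higher, and 1 transporter lower. In that order these are 19.4%, 33.3%, 10.5%, 10%, 14.3% and 11.1% of the lists, beside 9.36% of all genes. Among the list genes called, *Ero1l* was at -0.60 (0.0046), *Tfrc* at 0.42 (0.0055), *Epas1*, a HIF subunit, at -0.45 (0.0083) and *Rpe* at 0.49 (0.0026).

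The members also differed between the sets. Set 3 was compared with set 2 over scr, SP, 3p, 5p and SATS with siRNA as a term. The limma fit called 7 of 10 members, 2 higher and 5 lower in set 3, beside 51.6% of all 16490 genes, so the share is not far from the background. Taking all 6 libraries of each set, 2 members lay above without overlap, as did 10.9% of all genes, and 5 lay below, as did 14.9%. The labels give no date or run for a set, and the sets differ in all that was done to them together.

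*Vegfa* had the largest difference of the members, at -1.20 ± 0.076 (SE, limma adjusted p = 2.4e-08). In set 2 its libraries read 212 at the lowest, 255 at the median and 304 at the highest, and in set 3 87.4, 112 and 126. *Pfkp* was lower by -0.74 ± 0.064, reading 1180.3 to 1404 in set 2 and 604 to 936 in set 3. *Slc2a3* was lower by -0.71 ± 0.050, with 19993 to 24022 against 12013 to 15182, and *Slc2a1* by -0.47 ± 0.061, with 11692 to 14559 against 7299.8 to 11298. *Hk2* was lower by -0.33 ± 0.052, with 5631 to 6153 against 4055 to 5140.4. *Pdk1* and *Bnip3*, both genes of mitochondrial restraint, rose by 0.70 ± 0.049 and 0.57 ± 0.054, with *Pdk1* at 1587 to 2152 in set 2 and 2531 to 3726 in set 3 and *Bnip3* at 578 to 652 and 678 to 1093. *Aldoa* (-0.09, adjusted p = 0.208), *Ldha* (0.09, 0.194) and *Pfkl* (0.11, 0.0852) did not pass, and *Pfkl* passed with edgeR and after scaling without *Rn45s*.

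The other lists moved in both directions between the sets. Of 31 HIF targets 9 were higher and 15 lower in set 3, with a median of -0.19 beside -0.01 over all genes. *Plin2*, a lipid droplet coat protein, was at -1.15 ± 0.063 (SE), *Bhlhe40*, a circadian repressor, at -1.01 and *Loxl2*, which crosslinks collagen, at -0.99. Of 15 HIF factors and regulators 8 were higher and 2 lower, with *Hif3a* at 0.93 and *Cited2* at -0.94. Of 19 enzymes 2 were higher and 7 lower, *Pfkfb3* being at -0.95. Of 9 transporters 2 were higher, among them the lactate carrier *Slc16a1* at 0.28, and 1 lower. Of 30 genes of pyruvate use 5 were higher and 1 lower, and of 7 pentose phosphate genes 3 and 2. In that order the lists had 77.4%, 66.7%, 47.4%, 33.3%, 20% and 71.4% called in either direction, beside 51.6% of all genes. The cell markers moved as well. In set 3, 5 of 8 stem cell markers were lower and 0 higher (median -0.46, *Klf4* at -1.41), 4 of 5 tested fibroblast markers were lower (median -2.40, *Col1a1* at -3.04), 3 of 4 tested trophectoderm markers were lower (median -1.56, *Hand1* at -2.52), and 2 of 6 primitive endoderm markers were higher and 2 lower (median -0.31). These are 62.5%, 80%, 75% and 66.7% of the marker lists. The part of the markers in the members' differences was not tested.

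**Figure D5:**
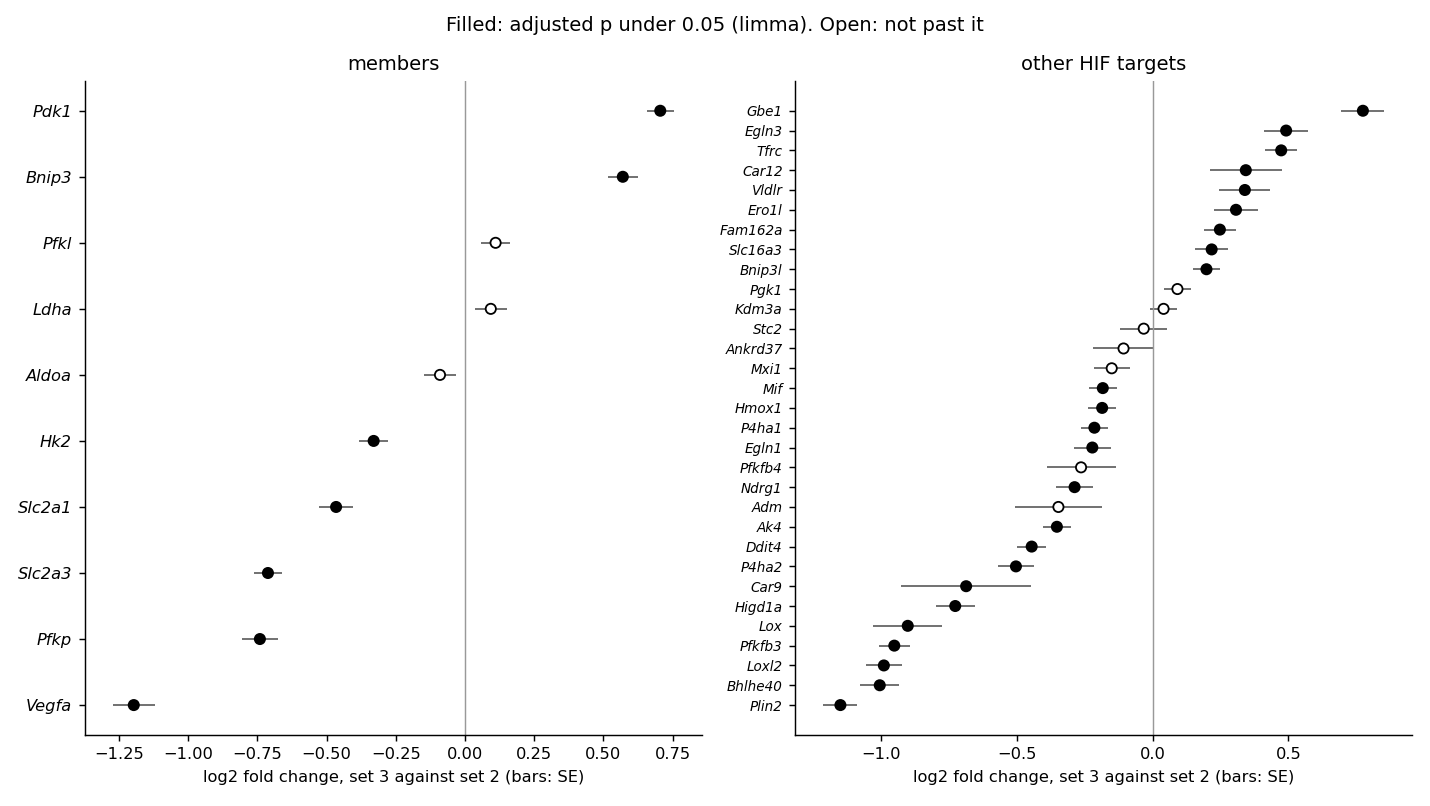
Log2 fold change of set 3 against set 2 (x axis, bars are SE) for the 10 members (left) and the 31 other HIF targets (right), filled where the limma adjusted p was under 0.05. *Pdk1* and *Bnip3* lie to the right and *Vegfa* farthest to the left among the members, and *Plin2* is the lowest of the targets shown.

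Within the sets the members did not move as 1 group. Over the 12 libraries of sets 2 and 3, with log2 values centred within each set, 23 of the 45 pairs of members had a Pearson r over 0 and the median r was 0.01. *Vegfa* and *Slc2a3* had the highest r, 0.80, followed by *Pfkp* with *Pdk1* (0.74) and *Slc2a1* with *Slc2a3* (0.72). *Pdk1* with *Slc2a3* had the lowest, -0.80, and *Hk2* with *Slc2a1* had -0.74. The points of each pair share their libraries and their size factors. Of 11016 other genes with a mean normalised read count of at least 50, those most like the mean of the members were *Snrnp40* (r = 0.94), *Tmem143* (0.91), *Nans* (0.90), *Pfdn6* (0.89) and *Crabp2* (0.87), and those most unlike it were *AW554918* (-0.92), *Rb1* (-0.88), *Cyld* (-0.86), *Tagap* (-0.86) and *Lin52* (-0.85). They were picked from the extremes of 11016 values over 12 libraries.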

How the data were processed

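RNA-seq of 16 libraries of serum-grown mESCs was analysed, and the 2 libraries grown in 2i were not used here. The authors aligned reads to mm10 with HISAT2, counted them with featureCounts and scaled each library by its DESeq2 size factor, so the deposited values are a normalized signal. The submitters' processing notes name edgeR 3.16.5 and DESeq2 1.14.1. Dividing by the value of 1 read gave whole reads for 100% of values (tolerance 0.01 reads), which served for depth and for the count tests. A separate table of set 1 was not used. Groups and set numbers came from the sample labels.

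Here log2(value + 1) was fitted with limma 3.58.1 (trend) in R 4.3.3 with a minimum sum of 10 per gene over the libraries in the fit, and the call threshold was 0.05 on p-values adjusted by Benjamini-Hochberg. Folds on this scale understate low genes. SP libraries of set 1 were averaged. Sets 2 and 3 were fitted together, and set 3 was compared with set 2 with siRNA as a term. Set numbers come from the labels and pair the samples: deviations from the group means correlated within sets at 0.77 to 0.82 over the 3 pairs of SP and scr and at 0.81 to 0.93 over 20 pairs in sets 2 and 3. The fit with the set as a replicate block is therefore printed beside results it changes. Alternatives were other pseudocounts, filters and controls, scaling without *Rn45s*, leaving out each library, edgeR 4.0.16 and DESeq2 1.42.0. The fits of sets 2 and 3 were tested on simulated counts, for 3p against scr and for set 3 against set 2. The other steps were not tested in this way.

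Members and gene lists were chosen with earlier results of these data known, and 1 gene of the HIF target list is not reported here. Genes named beyond them were *Stag1*, *Rn45s*, marker genes, the 5 most and 5 least like the members' mean, and at most the 3 with the largest difference per list and comparison. *Krt7* and *Lum* are markers named after their values were seen. Exon lengths and gene positions came from GENCODE M21 (GRCm38, the build of mm10), with the exons of the 2 *Aldoa* entries merged. Promoter sequences came from RefSeq, matched by symbol for 9 of 10 members. Depth bounds counting error only.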

Additional observations from a re-analysis of the deposited data

Results flagged for a closer look

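In 3 members 1 library stood apart from the other 4 SP libraries by Dixon's criterion, which chance meets in about 1 of 20 groups, and 10 members were looked at. *Slc2a1* was high in SP of set 2 (12150.3, the other 4 at 6111 to 7299.8), and all libraries of that set were high. *Slc2a3* was high in the same library (21364, the others at 8754 to 12394), again with its whole set. *Ldha* was high in SP 1b of set 1 (17518, the others at 11621 to 12786), where scr of the set read 12208.

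The effect of SATS differed from that of SP, 3p and 5p for 3 members by a test of the difference itself, in the limma fit with the replicate block, a contrast chosen after the values were seen. The log2 differences were -0.37 for *Pdk1* (adjusted p = 0.0042), 0.34 for *Slc2a1* (0.0177) and 0.26 for *Slc2a3* (0.0254), each in the same direction in 2 of 2 sets. Without the block the adjusted p were 0.975, 0.902 and 1.00.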

How the results depend on the processing

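Without the replicate block, the knockdown comparisons called 0 members under every alternative run (limma with other pseudocounts, filters, scaling or controls, edgeR, DESeq2 and each library left out), and with it 3p against scr and 5p against 3p still called 0. With the block by limma and by edgeR, 5p called 1 member, SATS 1, and SATS against the mean of the others 3. With untreated and luciferase libraries as controls as well, SP in sets 2 and 3 called 1, 5p 1, SATS 3 and the last contrast 4, beside 2.32%, 6.71%, 10.7% and 11.3% of 16684 genes. Leaving out 1 library in turn with the block, SP over 3 sets called 0 to 1, 5p 0 to 1, SATS 0 to 1 and the last contrast 0 to 4. The block changed no other call of a member. Set 3 against set 2 called 7 or 8 members throughout, and 7 with each library left out.

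Among the members with an unadjusted p under 0.05 with the block and those compared between sets, directions turned only when 1 library was left out of the unblocked fits, which leaves the sets unbalanced between the groups. Over all 10 members the number above 0 also moved, with SP over 3 sets from 2 to 6 with the added controls and to 3 with edgeR, and after scaling without *Rn45s* from 6 to 4 with SATS and from 5 to 6 with 3p, and the cause was not tested. With 1 library left out the log2 fold changes ranged, for *Vegfa*, from -0.98 to 0.36 with SP in sets 2 and 3, from -0.995 to 0.27 with 3p, from -1.16 to 0.15 with 5p and from -0.32 to 0.79 for SATS against the mean of the others. For *Slc2a1* with SP they ranged from -0.69 to 0.047, and for *Slc2a3* from -0.59 to 0.15 with 5p and from -0.073 to 0.59 for SATS against the others. *Bnip3* ranged from -0.083 to 0.52 with 5p and from -0.060 to 0.68 with SATS, *Pdk1* from -0.74 to 0.059 with SATS and from -0.23 to 0.56 for 5p against 3p. *Pfkp* ranged from -0.73 to 0.24 with SATS, from -0.16 to 0.62 for 5p against 3p and from -0.73 to 0.23 for SATS against the others, and *Hk2* there from -0.43 to 0.085. Depth limits *Vegfa* in set 1, with 20 to 83 reads.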
